A study of Mus musculus with 18 samples.

Results

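The response of C2C12 cells to mouse Dux was compared with their response to human DUX4, gene by gene. The comparison used 12 of the 18 libraries of the series, which fell into 4 groups of 3. C2C12 is a line of mouse myoblasts, the proliferating cells that fuse into muscle fibres. One clonal line (15B) carried a codon-altered mouse Dux transgene and another (9) a codon-altered human DUX4 transgene. Both lines grew under puromycin selection, and each transgene was switched on by doxycycline. In the induced groups the cells had 2 µg/ml doxycycline for 36 h, and in the uninduced groups they had none and were collected at the same time. Each library came from a separate culture of its line. With 1 clone for each transgene, the clone and the transgene cannot be told apart. Another clonal line with a firefly luciferase transgene, also 3 induced and 3 uninduced libraries, is given beside some of the results where doxycycline alone moved the same genes.

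Dux and DUX4 are transcription factors with a pair of homeodomains, which bind DNA. Both are active for a short time in the early embryo, mouse Dux around the 2-cell stage and human DUX4 at the corresponding stage of the human embryo. DUX4 is also known from facioscapulohumeral muscular dystrophy, in which skeletal muscle expresses it wrongly and is harmed by it. A response here is the log2 ratio of induced to uninduced expression within a line. The difference of responses is the mouse Dux response minus the human DUX4 response, on the log2 scale. A positive difference can be a larger rise, a smaller fall, or a rise against a fall, so both responses are given beside it.

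The letters before the gene starts are shown first for genes on which the comparison turns. Sequences and positions are from RefSeq (GRCm38.p6), and 45 of the 60 genes named by rule had an entry there. A motif for double-homeobox factors was searched on both strands of each window of 300 bases, 250 before and 50 after the start. Its letters were TNAT, then 2 of any base, then AATCA, 11 letters in all. It was in a window of 1.13% of all 27025 genes with a window, and of 0.548% of the 10773 tested genes among them. Some genes had several starts and so several windows, each a chance of a match. Of genes with a response at least 2 higher to mouse Dux on the log2 scale, 15 of 711 (2.11%) had it. Of those with a response at least 2 lower, 1 of 391 (0.256%) had it. These classes held 969 and 524 genes, called by edgeR or, where a group had no count, by limma-trend, and are wider than the edgeR counts given below. Near-identical copies share these letters, so the matches are not independent, and a match is not a measured binding site. Stricter spellings of the motif, with every letter fixed, were also searched. Each was in a window of 0 of the 711 genes with the higher and 0 of the 391 with the lower response. Over the 10773 tested genes these spellings were found in 1 and 0, too few to compare the classes. The Zscan4 genes, which encode zinc finger proteins of the 2-cell embryo, were among the genes with the largest differences. Each stretch below is read 5′ to 3′ on the strand that carries the motif, with the motif in capitals and 20 bases on each side. The last 4 lines are matches outside the Zscan4 genes, shown to compare the letters inside the motif. Their responses to mouse Dux and DUX4 were 9.88 and 0.62 for BB287469 and 12.10 and 5.63 for BC080695. For C87499 they were 6.27 and 1.02, and for Hist1h3b 4.54 and -0.71.
Zscan4b (chr7:10905111-10905161, minus strand, 91 bases before the start): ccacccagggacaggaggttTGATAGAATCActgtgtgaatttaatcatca
Zscan4c (chr7:11005611-11005661, plus strand, 114 bases before the start): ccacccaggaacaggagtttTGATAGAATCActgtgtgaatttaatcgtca
Zscan4d (chr7:11166243-11166293, minus strand, 125 bases before the start): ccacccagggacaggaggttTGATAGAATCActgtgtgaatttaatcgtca
Zscan4f (chr7:11397804-11397854, plus strand, 91 bases before the start): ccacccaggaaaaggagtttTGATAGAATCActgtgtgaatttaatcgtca
BB287469 (chr12:87816428-87816478, minus strand, 129 bases before the start): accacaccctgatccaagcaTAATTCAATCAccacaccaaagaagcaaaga
BC080695 (chr4:143567304-143567354, minus strand, 143 bases before the start): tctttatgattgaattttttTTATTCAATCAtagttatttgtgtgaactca
C87499 (chr4:88634254-88634304, minus strand, 98 bases before the start): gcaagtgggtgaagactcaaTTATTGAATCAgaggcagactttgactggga
Hist1h3b (chr13:23752290-23752340, minus strand, 35 bases before the start): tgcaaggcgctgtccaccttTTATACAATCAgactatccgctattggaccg

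The 4 Zscan4 genes shown carried the same 11 letters, TGATAGAATCA, within flanks that differed at few places. No match was found for Zscan4a, for lack of the motif or of a window. The 250 bases before the starts of 3 marker genes follow, to set a gene that rose with mouse Dux beside genes that moved in opposite directions. The capitals in Zscan4c mark the same motif, and neither of the other windows holds those letters, which says only that they are not in these windows. The Nrap window, taken from the start RefSeq gives for it, overlaps the edge of the annotated gene.
Zscan4c (chr7:11005495-11005744, plus strand): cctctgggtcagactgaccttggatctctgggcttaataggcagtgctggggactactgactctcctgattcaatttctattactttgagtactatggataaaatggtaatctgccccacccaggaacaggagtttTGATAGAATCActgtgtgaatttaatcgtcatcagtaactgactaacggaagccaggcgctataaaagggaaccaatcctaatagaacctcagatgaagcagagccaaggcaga
Spp1 (chr5:104434861-104435110, plus strand): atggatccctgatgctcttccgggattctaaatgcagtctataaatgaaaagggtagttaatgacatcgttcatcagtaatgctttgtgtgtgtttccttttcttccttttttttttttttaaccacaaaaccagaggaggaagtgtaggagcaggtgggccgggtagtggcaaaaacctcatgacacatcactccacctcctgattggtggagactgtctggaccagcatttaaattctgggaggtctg
Nrap (chr19:56390039-56390288, minus strand): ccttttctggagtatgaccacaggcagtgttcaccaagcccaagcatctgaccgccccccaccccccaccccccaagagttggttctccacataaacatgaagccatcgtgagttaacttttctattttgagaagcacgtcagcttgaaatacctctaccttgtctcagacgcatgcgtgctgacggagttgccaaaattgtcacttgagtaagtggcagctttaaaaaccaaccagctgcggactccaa

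The cells carried myoblast markers, though unequally between the lines. Uninduced expression as CPM (counts scaled by library size) was 123 ± 6.11 in the mouse Dux line and 26.2 ± 0.403 in the DUX4 line for the myoblast transcription factor Myod1, and 718 ± 24.4 and 212 ± 6.62 for the muscle filament gene Des (mean ± SD, n = 3). Myf5, another myoblast transcription factor, held 11 counts over the 3 uninduced libraries of the mouse Dux line and 313 over those of the DUX4 line. The summed CPM of 12 genes that define blood, endothelial, epithelial, fat, liver and nerve cells ranged from 2.437 to 2.931 in uninduced and from 3.15 to 5.13 in induced mouse Dux libraries. In the DUX4 line it ranged from 2.19 to 2.37 uninduced and from 21.09 to 25.15 induced, and Cd68, a macrophage marker, made up 928 counts after and 78 before induction. A marker of white blood cells, Ptprc, was at 0 in both DUX4 groups. The part of such changes in the results below was not tested.

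The 12 libraries held between 11010586 and 16958640 counts. After mouse Dux induction the 10 most abundant genes took 12.4% to 13.8% of each library, against 3.98% to 4.57% in the other 9. Library 1 of the mouse Dux line stood apart from its group, with and without doxycycline. Chi-square per degree of freedom was 34.0 and 36.4 between induced library 1 and libraries 2 and 3, which differed from each other by 2.14. The corresponding values for the uninduced group were 5.16, 5.25 and 1.26, and pairs in the DUX4 line lay between 1.34 and 2.45. Some results are also given without library 1. Others shifted without it and are given only with it. Reads of the transgenes were not analysed here.

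Most genes that could be tested responded differently to the 2 factors. At an adjusted p under 0.05 (edgeR, Benjamini-Hochberg), 8868 of 13602 genes (65.2%) had a difference of responses. It was higher for mouse Dux in 4471 (32.9%) and lower in 4397 (32.3%). A strong difference, at least 2 on the log2 scale, was higher in 788 genes (5.79%) and lower in 448 (3.29%). Without library 1 of both mouse Dux groups the counts were 4860 higher and 4579 lower. The split depended on how libraries were scaled. With total counts in place of TMM factors, the median difference of all genes went from 0.01 to -0.19. The counts then were 3538 higher and 5582 lower, so 38.8% of the calls were higher, against 50.4% with TMM. Values below are relative to TMM scaling. Counts in the gene lists below stand against the 32.9% higher and 32.3% lower over all genes tested. In bulk RNA, a change in the share of cells that express a gene and a change in its RNA per cell cannot be told apart.

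Each factor alone moved about as many genes as the other. Mouse Dux changed 9371 genes (68.9%), raising 4643 (34.1%) and lowering 4728 (34.8%), or 3199 and 6922 with total count scaling. Human DUX4 changed 9191 (67.6%), raising 4683 (34.4%) and lowering 4508 (33.1%), or 4359 and 4806 with that scaling. Changes of at least 2 were 790 rises (5.81%) and 207 falls (1.52%) with mouse Dux, and 496 (3.65%) and 403 (2.96%) with DUX4. Doxycycline in the luciferase line changed 4228 genes (31.1%), raising 2004 (14.7%) and lowering 2224 (16.4%). The 6558 genes changed by both factors went the same way in 3852 and opposite ways in 2706 (41.3%). Of the latter, 1266 rose with mouse Dux and fell with DUX4, and 1440 did the reverse. With total counts as the scale these became 827 and 2016. A further 1851 genes rose with both factors, of which 538 rose more and 528 less with mouse Dux. Of the 2001 genes that fell with both, 661 had a higher and 449 a lower response to mouse Dux. The 2 responses had a Pearson correlation of 0.215 and a Spearman correlation of 0.18 across genes, which are not independent replicates. No library is shared between the 2 responses. The lines also differed before induction, in 9030 genes (66.4%), and after it in 10715 (78.8%), so the same difference of responses can start from unequal levels.

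**Figure D1:**
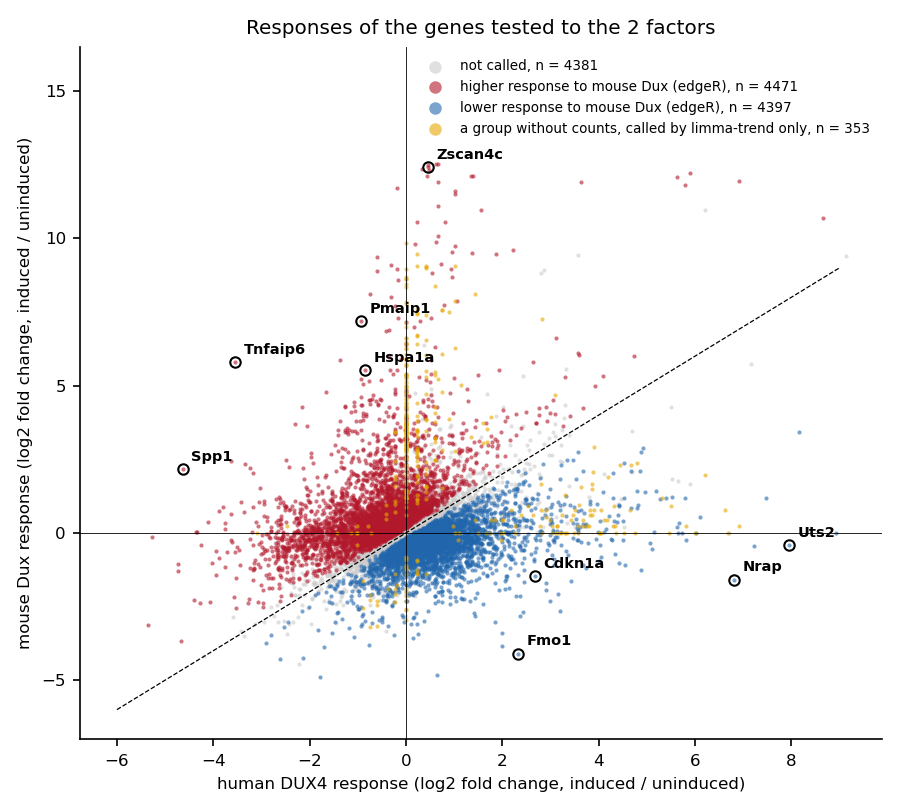
Mouse Dux response (vertical axis) against human DUX4 response (horizontal axis), both as log2 fold change of induced over uninduced, for each of 13602 genes. Colours give the call on the difference of responses, and the dashed line marks equal responses. Zscan4c lies at 12.42 and 0.45, Spp1 at 2.17 and -4.63, and Nrap at -1.58 and 6.82.

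Zscan4c had the largest difference among the 5 marker genes. Its RefSeq gene spans chromosome 7 from 11005745 to 11010547. Its CPM in the 3 mouse Dux libraries was 3.90, 2.96 and 3.12 uninduced and 18940, 18000 and 19140 induced. In the DUX4 line it was 2.50, 2.37 and 3.24 uninduced and 3.55, 3.50 and 4.08 induced. All induced mouse Dux libraries were high, and the other groups, the luciferase libraries among them (2.58 to 3.66), stayed within a narrow low range. The responses were 12.42 to mouse Dux and 0.45 to DUX4, a difference of 11.97 (SE 0.225, adjusted p = 1.61e-18). Reads of the Zscan4 copies can be split between them in ways that were not analysed here.

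Spp1 (chromosome 5 from 104435111 to 104441053), which encodes the secreted matrix protein osteopontin, moved in opposite directions. Its CPM went from 346, 341 and 342 to 1673, 1450 and 1521 with mouse Dux. With DUX4 it went from 1124, 1121 and 1088 to 44.2, 47.7 and 42.3. Uninduced DUX4 libraries were above uninduced mouse Dux libraries, induced ones below, and no groups overlapped. The responses of 2.17 and -4.63 gave a difference of 6.80 (SE 0.0823, adjusted p = 4.24e-21).

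Hspa1a (chromosome 17 from 34969359 to 34972156) encodes the heat-inducible chaperone HSP70. It rose from 30.4, 29.8 and 31.9 CPM to 1538, 1476 and 1279 with mouse Dux. It fell from 27.8, 29.2 and 29.0 CPM to 15.8, 17.3 and 14.5 with DUX4. The lines started level, with an uninduced gap of 0.10 on the log2 scale, and ended 6.48 apart. The difference of responses was 6.39 (SE 0.104, adjusted p = 3.47e-19). In the luciferase line Hspa1a fell by 0.49 with doxycycline.

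Cdkn1a (chromosome 17 from 29090979 to 29100722), which encodes the cell-cycle inhibitor p21, went the other way. With mouse Dux it fell from 254, 248 and 244 CPM to 92.4, 92.1 and 84.1. With DUX4 it rose from 134, 128 and 132 CPM to 880, 823 and 839. The difference was -4.16 (SE 0.0704, adjusted p = 3.47e-19), and the luciferase response was 0.04.

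Nrap (chromosome 19 from 56320037 to 56390062), which encodes a protein of muscle fibre assembly, had the most negative difference among genes with at least 10 counts in each group. It fell from 17, 16.8 and 15.9 CPM to 4.74, 5.78 and 5.86 with mouse Dux. It rose from 0.313, 0.513 and 0.377 CPM to 57.8, 61.5 and 60.7 with DUX4. The mouse Dux line was higher before induction, by 4.97, and lower after it, by 3.43. The difference of responses was -8.40 (SE 0.165, adjusted p = 2.84e-18). With doxycycline the luciferase line changed by -0.95.

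**Figure D2:**
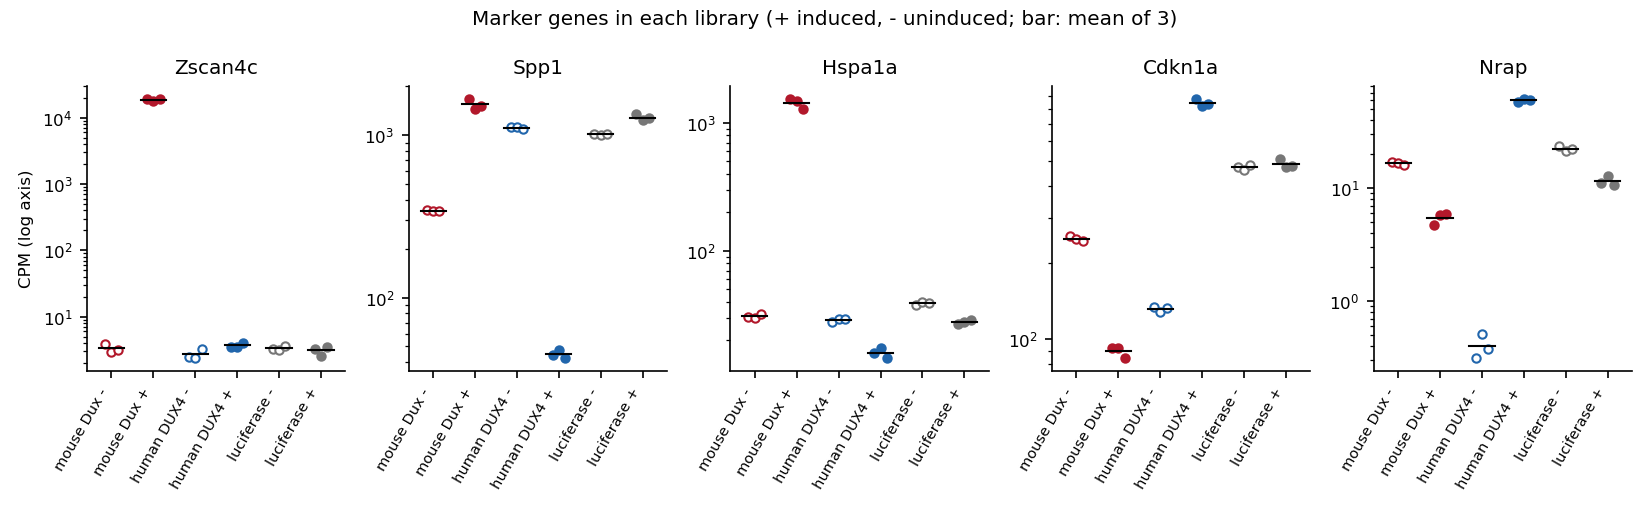
CPM (log axis) of the 5 marker genes in each of 18 libraries. Open points are uninduced, filled points induced, and bars are means of 3. Zscan4c is high only in the 3 induced mouse Dux libraries among those plotted, and Cdkn1a moves in opposite directions in the mouse Dux and DUX4 lines.

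Genes of the 2-cell embryo gave the largest positive differences. The list held 43 genes, of which 38 were in the table and 36 passed the filter on low counts. Members that passed only through the induced mouse Dux group had to differ, so the counts describe the list and are no test of it. By edgeR, 28 of the 36 responded more to mouse Dux and 0 less, with a median difference of 8.61 against 0.01 over all genes tested. All 26 members counted in every group were higher (median 9.08), and the other 10, each with a group at 0, were higher by limma-trend. Mouse Dux raised 36 and DUX4 17, with medians of 9.67 and 0.50.

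Members differed in their response to DUX4. Zscan4f, Zscan4d, Zscan4a and Zscan4b differed by 12.04 (SE 0.26), 11.86 (SE 0.493), 11.85 (SE 0.317) and 11.70 (SE 0.517), and their DUX4 responses lay between 0.43 and 0.67. Gm2022, a gene model of the same stage, rose from 3.78 ± 0.721 to 3304 ± 308 CPM with mouse Dux and from 11.3 ± 0.0939 to 23.1 ± 0.0787 CPM with DUX4. Its difference was 8.73 (SE 0.154, adjusted p = 5.97e-19), and in the luciferase line it rose by 1.11, close to the 1.02 of DUX4. Pramef25, of the Prame family, rose with both factors, by 11.95 and 6.91, a difference of 5.04. Tmem92, a membrane protein gene, rose by 10.71 and 8.67, and its difference of 2.04 was the smallest among the called members (SE 0.652, adjusted p = 0.0484). Gm12794, A430089I19Rik and Gm21312, gene models among the 8 largest differences, went from means of 0.826, 1.03 and 2.44 CPM to 2988, 6874 and 10920 CPM with mouse Dux. Their means after DUX4 were 0.492, 1.36 and 4.96 CPM, and their differences were 11.89, 11.92 and 10.75.

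Mouse counterparts of genes that DUX4 activates in human cells also responded more to mouse Dux. Of 33 genes 32 were in the table and 23 passed the filter. Of these, 14 were higher and 1 lower (median 5.04), against 32.9% and 32.3% of all genes tested. Here too, members that passed only through the induced mouse Dux group had to differ, so the counts are no test of the list. The list shares Zscan4, Usp17l and Pramef genes with the 2-cell list. Over the 21 members with counts in every group the median was 3.69. Klf5, a Krüppel-like transcription factor, rose by 2.08 with mouse Dux and fell by 0.52 with DUX4 (difference 2.60, SE 0.105). Hey1, a repressor downstream of Notch, was the member with a lower response to mouse Dux, rising by 2.05 against 4.31 with DUX4 (difference -2.26, SE 0.203).

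Genes of the cell cycle fell with DUX4 and changed less with mouse Dux. Of 50 S-phase genes, all tested, 48 had a higher response to mouse Dux (median 1.58). DUX4 lowered 47 and raised 1 (median -1.46), and mouse Dux raised 15 and lowered 16. The median mouse Dux response was 0.02. With total count scaling mouse Dux raised 10 and lowered 26, with a median of -0.22. Of 50 genes of G2 and M phase 49 were higher and 0 lower (median 1.82). DUX4 lowered 50 of these and mouse Dux 39, with medians of -2.23 and -0.45. Doxycycline in the luciferase line lowered 44 S-phase and 50 G2 and M-phase genes, with medians of -0.75 and -2.46. The lines also started from unequal levels. Before induction, 47 S-phase and 45 G2 and M-phase genes were lower in the mouse Dux line than in the DUX4 line. In 3 and 0 the mouse Dux line was higher.

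Mcm3, a subunit of the replicative helicase, went from 58.4 ± 2.33 to 74.8 ± 3.56 CPM with mouse Dux and from 148 ± 2.77 to 26.4 ± 0.788 CPM with DUX4. Its difference was 2.84 (SE 0.0703, adjusted p = 5.58e-17), and the luciferase response was -2.19. Uhrf1, which maintains DNA methylation through replication, went from 76.1 ± 7.30 to 145 ± 6.02 and from 192 ± 4.08 to 37.4 ± 1.22 CPM (difference 3.28, SE 0.103), with a luciferase response of -2.18. The mitotic kinesin gene Kif2c fell by 0.14 with mouse Dux and by 2.58 with DUX4, a difference of 2.43 (SE 0.0916). The luciferase response of Kif2c was -2.99. Its mouse Dux response did not pass under median-of-ratios scaling (-0.13, adjusted p = 0.059). For Kif18b, another mitotic kinesin gene, the difference was 2.12 (SE 0.0778). Its DUX4 response was -1.94 and its luciferase response -2.51. Its mouse Dux response of 0.17 became -0.07 with total count scaling (adjusted p = 0.244).

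Of 36 inhibitors of cyclin-dependent kinases and targets of p53, 13 had a higher and 15 a lower response to mouse Dux (median -0.18), near the shares of all genes tested (32.9% and 32.3%). The extremes were Cdkn1a, described above, and Pmaip1, which encodes the pro-apoptotic protein NOXA. Pmaip1 rose from 5.69, 4.82 and 5.54 CPM to 852, 738 and 801 with mouse Dux and went from 12.1, 11 and 13 to 7.38, 4.42 and 7.03 CPM with DUX4. Only the induced mouse Dux libraries were high. The difference was 8.12 (SE 0.179, adjusted p = 1.17e-17). Gadd45b and Gadd45g, stress-inducible growth arrest genes, fell with DUX4 by 2.17 and 3.50 and had differences of 3.14 and 3.03. The death receptor gene Fas, Bbc3, which encodes PUMA, and Zmat3 rose by 1.61, 0.62 and 1.09 with DUX4 and had differences of -1.68, -1.81 and -1.08.

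Heat shock genes responded more to mouse Dux in 23 of 37 tested and less in 10, with a median of 0.58. The largest differences were those of the HSP70 genes Hspa1a, Hspa1b and Hspa1l. Hspa1b, a near-identical copy whose reads may be shared with Hspa1a, rose from 51.8 ± 1.74 to 1717 ± 156 CPM with mouse Dux. With DUX4 it fell from 48.7 ± 1.54 to 26.2 ± 2.74 CPM (difference 5.94, SE 0.109, adjusted p = 1.06e-18). The HSP110-family gene Hspa4l, the small heat shock gene Hspb8 and its cochaperone gene Bag3 rose with DUX4, by 2.03, 0.88 and 1.65. Their differences were -2.56, -1.56 and -1.28. A strict spelling of the heat shock motif was GAA and TTC and GAA with 2 of any base between them. It was in a window of 5 of 30 heat shock genes (16.7%) and of 0.603% of all tested genes with a window. It was not in the 250 bases before Hspa1a, which says nothing of looser spellings, as these were not searched.

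Genes of the integrated stress and unfolded protein responses, which slow translation and extend protein folding in the endoplasmic reticulum, had a larger log2 response to mouse Dux in 32 of 44 and a smaller one in 3 (median 0.80). The lower count was 5 without library 1 of the mouse Dux line and 7 with total count scaling. Mouse Dux raised 36 and lowered 2, DUX4 raised 19 and lowered 18, and doxycycline in the luciferase line raised 32 and lowered 7. Hspa5, the main chaperone of the endoplasmic reticulum, rose from 691 ± 21.6 to 1425 ± 82.7 CPM and fell from 1091 ± 5.11 to 695 ± 10.2 CPM (difference 1.70, SE 0.0662). Pdia4, which forms disulfide bonds, rose by 0.48 and fell by 0.77 (difference 1.25, SE 0.0652). Atf3, a stress-induced transcription factor gene, rose with both, by 6.02 and 4.73.

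Immediate early genes, which growth factors and stress switch on within minutes, responded more to mouse Dux in 31 of 35 and less in 4 (median 1.69). Mouse Dux raised 28 and DUX4 14, and DUX4 lowered 16. Fos went from 1.34 to 54.4 CPM with mouse Dux and from 2.36 to 1.20 CPM with DUX4 (difference 6.16, SE 0.334). Egr3 and Arc fell by 3.76 and 3.04 with DUX4 and differed by 3.89 and 4.08. Cyr61, a secreted matrix-associated protein gene, rose from 95.2 ± 4.14 to 811 ± 83.0 CPM with mouse Dux and from 368 ± 2.31 to 424 ± 5.71 CPM with DUX4, a difference of 2.88 (SE 0.0853).

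Ctgf, a gene of the same family as Cyr61, started from very different levels in the lines. It rose from 1.78, 2.09 and 2.61 CPM to 48.0, 42.6 and 43.7 with mouse Dux, and it went from 101, 99.8 and 93.0 to 70.5, 83.1 and 77.5 with DUX4. Induced mouse Dux libraries were still below every DUX4 library. The luciferase response of Ctgf was -1.14, against -0.35 with DUX4. The difference of responses was 4.62 (SE 0.137, adjusted p = 9.22e-16), while the lines were -5.40 apart before and -0.78 after induction (mouse Dux minus DUX4).

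Cholesterol synthesis genes responded less to mouse Dux in 18 of 26 and more in 4 (median -0.63). They fell with each treatment, 26 with mouse Dux, 23 with DUX4 and 26 with doxycycline in the luciferase line, with medians of -1.28, -0.78 and -1.11. Idi1, an enzyme of isoprenoid synthesis, fell from 283 ± 13.2 to 68.7 ± 3.94 CPM with mouse Dux and from 354 ± 4.52 to 273 ± 4.31 CPM with DUX4 (difference -1.67, SE 0.0775). Acat2, which joins the first acetyl units, fell by 1.76 with mouse Dux and had a DUX4 response of 0.00 (difference -1.76, SE 0.0828). The luciferase responses of Idi1 and Acat2 were -2.03 and -1.23.

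Of 40 collagen and matrix genes tested, 22 had a higher and 9 a lower response to mouse Dux (median 0.89, or 0.69 over the 38 counted in every group). Both factors lowered most of them, 26 and 29. Has2, which makes hyaluronan, rose from 22.6 ± 2.71 to 380 ± 20.6 CPM with mouse Dux and from 69.0 ± 1.71 to 136 ± 5.53 CPM with DUX4 (difference 3.09, SE 0.099). Col1a1, a chain of type I collagen, went from 9.20 to 7.85 CPM with mouse Dux and fell from 644 to 107 CPM with DUX4 (difference 2.37, SE 0.211).

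Of 27 myogenic regulators and myoblast markers 9 were higher and 9 lower (median -0.13), which is close to the 32.9% and 32.3% of all genes tested. Myod1 fell with both factors, by 0.48 with mouse Dux and by 2.79 with DUX4 (difference 2.32, SE 0.147, adjusted p = 5.25e-11). Eya1, a transcriptional cofactor of muscle development, went from 57.1 ± 2.73 to 40.0 ± 0.91 CPM with mouse Dux and from 36.0 ± 0.997 to 236 ± 3.31 CPM with DUX4 (difference -3.22, SE 0.0759). Sdc4, a proteoglycan of muscle stem cells, rose from 97.6 ± 3.81 to 952 ± 65.9 and from 165 ± 1.38 to 208 ± 6.21 CPM (difference 2.95, SE 0.0716). Of 46 sarcomere genes 10 were higher and 10 lower (median -0.54), smaller shares than the 32.9% and 32.3% of all genes tested. Ankrd1, which encodes a stretch-responsive protein, rose from 204 ± 8.01 to 1682 ± 77.1 CPM with mouse Dux. It fell from 301 ± 5.78 to 177 ± 4.36 CPM with DUX4, a difference of 3.82 (SE 0.0887). Its luciferase response was -0.91, against -0.77 with DUX4. The troponin gene Tnnc1 differed by -3.03 and the smooth muscle actin gene Acta2 by 2.90.

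Genes of the acetylcholine receptor and the neuromuscular synapse numbered 17, of which 7 responded more to mouse Dux and 9 less (median -0.65). Over all genes tested the shares were 32.9% and 32.3%. The receptor subunit genes Chrnd and Chrng lie side by side on chromosome 1 and moved together. Chrnd went from 27.1, 28.5 and 28.1 CPM to 18.1, 19.2 and 18 with mouse Dux and from 21.0, 23.5 and 21.4 to 167, 165 and 172 with DUX4. The mouse Dux groups did not overlap, nor did the DUX4 groups. Its difference was -3.52 (SE 0.0807, adjusted p = 1.97e-17) and that of Chrng -3.70 (SE 0.121). Doxycycline lowered both in the luciferase line, by 0.63 and 0.69. Among the other subunit genes Chrna1 differed by -1.56 and Chrnb1 by 0.30.

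Of 32 interferon-stimulated genes 10 were higher and 10 lower (median -0.12), again close to the 32.9% and 32.3% of all genes. Ifit1 rose by 2.47 with mouse Dux (difference 3.01, SE 0.811), and Ifit3 rose by 3.69 with DUX4 (difference -3.39, SE 0.353). Dtx3l and Ddx58, a ubiquitin ligase and an RNA sensor gene, fell by 1.05 and 0.83 with mouse Dux and had differences of -1.34 (SE 0.12) and -0.93 (SE 0.0877). In a longer list of non-muscle cell markers, 12 of 29 passed the filter, with 4 higher and 3 lower (median 0.56), against the same shares of all genes. Cebpa, a transcription factor of fat and myeloid cells, rose from 24.0 ± 1.46 to 111 ± 9.88 CPM and fell from 4.54 ± 1.00 to 1.74 ± 0.215 CPM (difference 3.51, SE 0.195). Runx2, of bone, had a response of 0.07 to mouse Dux and fell by 1.34 with DUX4 (difference 1.41, SE 0.0716). The macrophage markers Cd68 and Itgam rose by 3.49 and 3.82 with DUX4 and differed by -2.60 and -2.84.

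**Figure D3:**
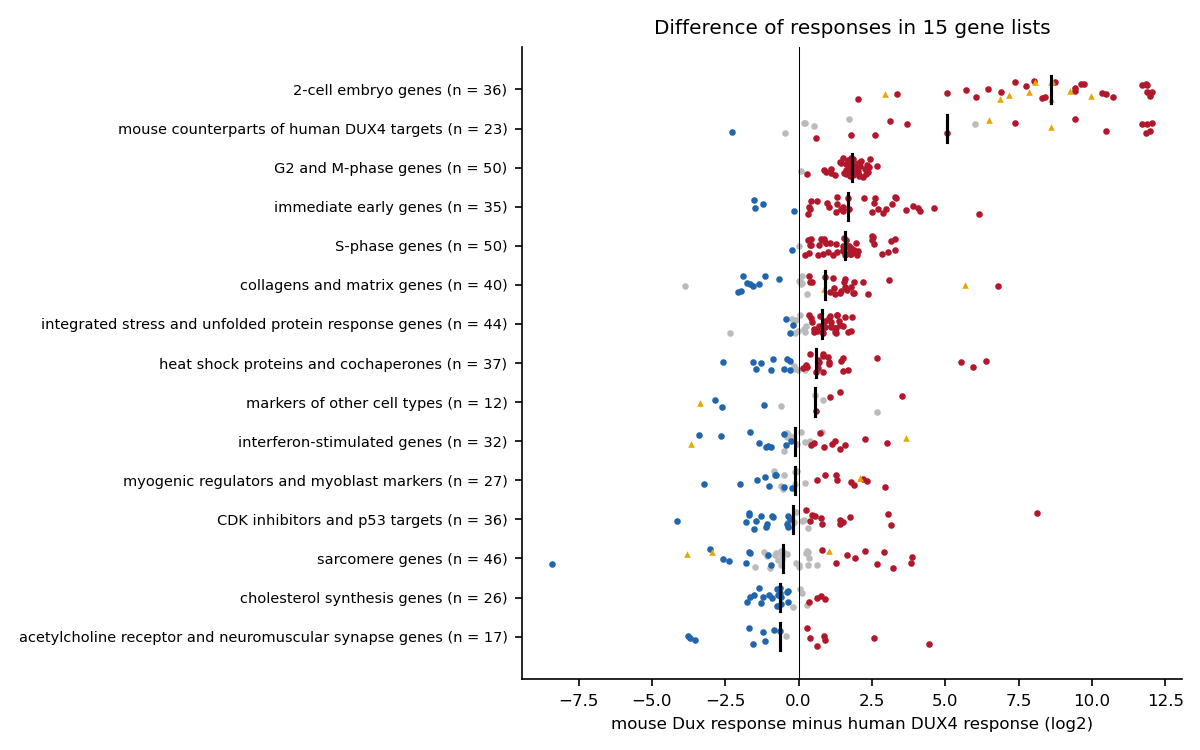
Difference of responses (horizontal axis, log2, mouse Dux minus human DUX4) for each tested member of 15 gene lists, ordered by median (black bar). Red and blue points were called higher and lower by edgeR, triangles are genes with a group at 0 called by limma-trend, and grey points were not called. The 2-cell list has the highest median, 8.61, and the acetylcholine receptor list the lowest, -0.65.

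Several genes not on these lists gave large negative differences. Fmo1, a monooxygenase gene, fell from 198, 209 and 201 CPM to 13.0, 10.4 and 11.7 with mouse Dux and rose from 34.3, 33.3 and 31.8 to 160, 165 and 175 with DUX4. The groups changed places, with the mouse Dux line high before and low after induction. The difference was -6.42 (SE 0.088, adjusted p = 2.11e-20). Ppl, which encodes periplakin of cell junctions, fell by 2.65 and rose by 3.21 (difference -5.86, SE 0.155), and Lix1 fell by 3.83 and rose by 1.98 (difference -5.82, SE 0.136). Dkk3, of the Dickkopf family, and Lgr5, an R-spondin receptor gene, differed by -5.39 (SE 0.442) and -5.23 (SE 0.195).

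A pair of the 8 most negative differences each came from a single line, the DUX4 line for Myo1g and the mouse Dux line for Sfrp2. Myo1g, an unconventional myosin gene, rose from 5.13, 4.10 and 3.70 CPM to 228, 223 and 218 with DUX4 and stayed between 0.127 and 0.526 CPM in the 6 mouse Dux libraries. Its difference was -5.65 (SE 0.756, adjusted p = 2.04e-06). Sfrp2, a secreted modulator of Wnt signalling, fell from 326, 304 and 302 CPM to 13.5, 10.6 and 8.50 with mouse Dux. In the DUX4 line it lay between 0.151 and 0.557 CPM in all 6 libraries, 9.60 below the mouse Dux line before induction. Its difference was -5.46 (SE 0.598, adjusted p = 1.40e-07).

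Genes that moved strongly in opposite directions were few. There were 12 that rose with mouse Dux and fell with DUX4 by at least 2 each and 9 that did the reverse, against 105 that rose and 46 that fell that strongly with both. Among the first kind Tnfaip6, which encodes a hyaluronan-binding protein of inflammation, had the largest difference. It had 1 count in each uninduced mouse Dux library and 13.1, 9.91 and 9.45 CPM after induction, while DUX4 took it from 74.0, 69.6 and 76.4 CPM to 5.78, 6.67 and 6.09. The induced groups of both lines were within 0.80 of each other on the log2 scale. The difference of responses was 9.33 (SE 0.245, adjusted p = 2.69e-15), and between 8.58 and 10.90 with other settings and prior counts.

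The interleukin receptor genes Il18rap and Il1rl1 were both of this kind. Il18rap went from 3.4, 3.37 and 2.87 CPM to 39.0, 43.5 and 47.8 with mouse Dux and from 6.13, 4.87 and 4.38 to 0.904, 0.990 and 0.937 with DUX4. Induced mouse Dux libraries were the highest and induced DUX4 libraries the lowest, with no overlap. The difference was 6.01 (SE 0.218, adjusted p = 1.77e-14), and that of Il1rl1 was 4.99 (SE 0.445). Edn1, which encodes the peptide endothelin-1, rose from 2.41 ± 0.93 to 12.2 ± 1.72 CPM and fell from 1.91 ± 0.527 to 0.0663 ± 0.066 CPM (difference 5.68, SE 0.466). It also fell in the luciferase line, by 1.48. Sh2d1b1, an adaptor gene of immune cells, differed by 6.08 (SE 0.497).

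Of the genes that fell with mouse Dux and rose with DUX4, Cd28, a receptor gene of T cells, went from 6.96, 5.22 and 7.01 CPM to 0.460, 0.826 and 1.10 with mouse Dux. With DUX4 it went from 2.50, 1.60 and 2.04 to 11.2, 11.6 and 10.4 CPM. No groups of the same line overlapped. The difference was -5.18 (SE 0.304). Nfe2, a transcription factor gene of blood cells, and Fads6, of the fatty acid desaturase family, differed by -5.32 (SE 0.373) and -5.11 (SE 0.313). Ppl, Fmo1, Dkk3 and Lgr5, given above, were also among the 9.

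**Figure D4:**
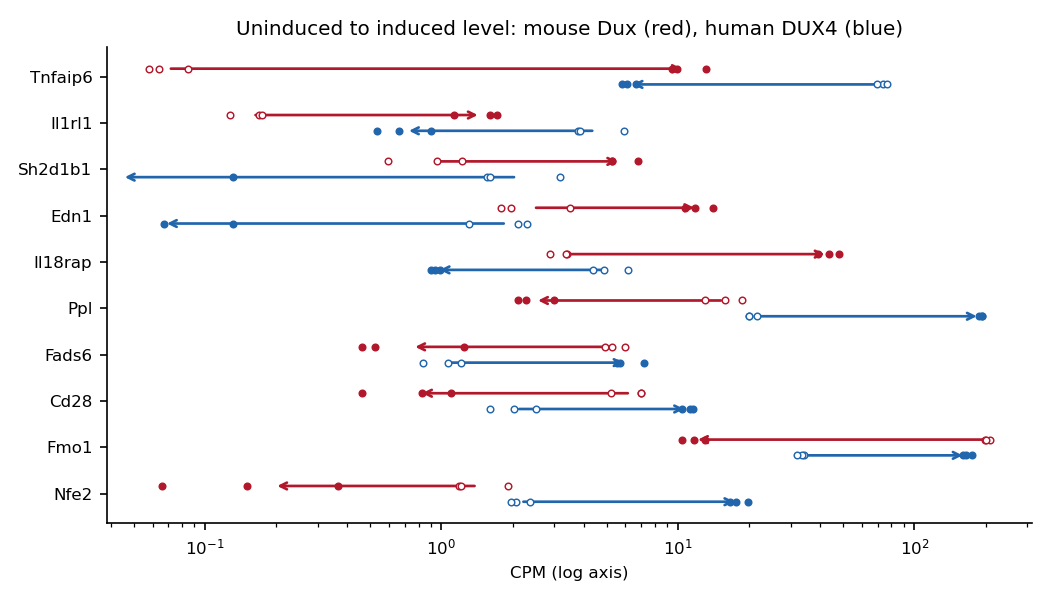
CPM (log axis) of the 10 genes (5 each way) with opposite responses whose smaller response was largest, as arrows from the uninduced to the induced mean, mouse Dux in red and human DUX4 in blue. Points are single libraries, open when uninduced, and libraries without a count (in induced DUX4, 2 for Sh2d1b1 and 1 for Edn1) are not drawn. In the upper 5 genes the red arrow points right and the blue one left, and in the lower 5 the reverse.

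Genes with no count in a whole group needed another test. There were 654 such genes among those tested. Where both groups of a line are at 0, edgeR's test of the difference has nothing to compare in that line. This was so for 207 genes in the DUX4 line and 55 in the mouse Dux line, and edgeR gave 334 of the 654 an adjusted p above 0.9. It called 116 (17.7%). Limma-trend, which adds a prior count of 2 before taking logs, called 461 (70.5%), of which 314 were higher (48.0%) and 147 lower (22.5%). A difference of at least 2 was called higher in 235 (35.9%) and lower in 97 (14.8%). Genes that passed the filter only through the induced mouse Dux or the induced DUX4 group had to differ. These shares therefore describe the genes and are no test of them. Over all genes tested limma-trend called 69.8%. In the 654 genes the tools shared 108 calls, and over all genes called by both no sign differed. The prior count sets the size of these differences, so counts and bounds are given with them.

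Gm13078, a gene model, had no count in uninduced mouse Dux libraries and 8660, 6275 and 6801 after induction. That is at least 7681-fold higher against a floor of 3 counts over the group. In the DUX4 line it had 1 count uninduced and 5 induced, a ratio of 5.04 (95% exact interval 0.564 to 238). The limma difference was 11.23 (SE 0.289, adjusted p = 1.79e-15). Usp17lc, of the Usp17-like deubiquitinase family, had 2 counts in each uninduced mouse Dux library and 2632, 2646 and 2715 induced, against 0 and 1 in the DUX4 groups. Its limma difference was 9.27 (SE 0.311). B020004J07Rik, Gm16513 and AA792892 held 4920, 6824 and 3134 counts after mouse Dux and 0 after DUX4, with limma differences of 10.01, 9.95 and 9.53.

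The 5 genes with the most negative differences had most of their counts after DUX4. Uts2, which encodes the vasoactive peptide urotensin 2, had 1124, 1178 and 1121 counts after DUX4 induction and 2, 4 and 2 before. In the mouse Dux line it had 2 counts uninduced and 0 induced. The limma difference was -8.31 (SE 0.33, adjusted p = 5.16e-13). Agtr2, the type 2 angiotensin receptor gene, had 3359 counts after and 54 before DUX4, a ratio of 62.7, and 0 and 1 in the mouse Dux groups (limma difference -6.06, SE 0.35). Rhag, an ammonia channel gene of red blood cells, had 1183 after and 4 before DUX4, and 1 and 0 in the mouse Dux groups (limma difference -6.80, SE 0.345). Ctsq, a cathepsin gene, and C8b, a complement gene, were at 0 in the other 3 groups and held 600 and 371 counts after DUX4, at least 202-fold and 125-fold higher. Their limma differences were -6.69 (SE 0.228) and -6.0 (SE 0.228).

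**Figure D5:**
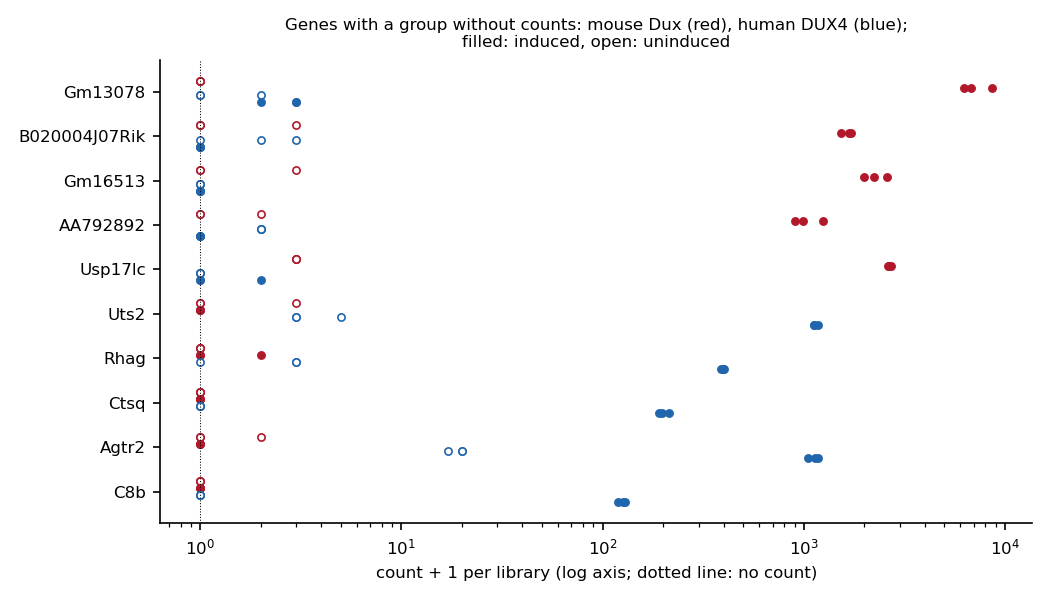
Counts plus 1 in each library (log axis) for the 10 genes with the largest differences among those with a group at 0, mouse Dux in red and human DUX4 in blue, filled when induced. The dotted line marks no count. The upper 5 genes have at least 901 counts in each induced mouse Dux library and the lower 5 at least 118 in each induced DUX4 library.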

How the data were processed

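Polyadenylated RNA of C2C12 cultures was sequenced. The table that the authors deposited holds raw counts of reads for each gene and library. The submitters' processing notes name TopHat2 (2.0.12), Bowtie2 (2.2.3), CASAVA and the build mm10. How reads were counted, with which annotation and whether by strand, was not given there, so the split of reads between near-identical, overlapping or antisense genes is uncertain. Labels gave each library's group and number. In 27 genes a symbol turned into a date was restored from its identifier.

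Of 24028 genes, 5017 had no count, and filterByExpr by group left 13602. Counts were scaled by TMM factors, also in CPM. One model of 6 group means was fitted to all 18 libraries and tested with edgeR's quasi-likelihood F test, two-sided (version 4.0.16, in R 4.3.3), and the difference of responses was an interaction contrast. Benjamini-Hochberg adjustment covered every tested gene. Fold changes used a prior count of 2, and SE is the size divided by the square root of F. The biological coefficient of variation was 6.25%. For genes with a group at 0, limma-trend (limma 3.58.1) on log2 CPM was used. Intervals (95%, exact) and floors (3 counts over the group) cover counting error only. The p-values use 1 spread for all lines, although library 1 made it larger in the mouse Dux line than elsewhere. Both tests were tested on simulated data.

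The genes named were the 5 markers, the 8 highest and 8 lowest called differences among genes with at least 10 counts in each group, the 5 opposite responses each way with the largest smaller response, the 5 largest differences each way among genes with a group at 0, and 2 per gene list by smallest p. Other list members named were chosen after their values were seen. The members and lists were chosen with earlier results of these data known. Alternatives were other scalings, no filter, DESeq2 1.42.0, limma-trend for all genes, other prior counts, the 12 libraries alone, a replicate block, a minimum difference (glmTreat) and leaving out libraries. One gene of the lists is not reported here. Positions are RefSeq's (GRCm38.p6, the mm10 assembly).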

Additional observations from a re-analysis of the deposited data

Results flagged for a closer look

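Among the genes named by rule, 31 are listed because the 2 lines moved in opposite directions, each response past an adjusted p of 0.05 in edgeR. In each, the difference itself passed the interaction test. These genes are part of the comparison reported above, and the values in brackets are differences of responses (log2, mouse Dux minus human DUX4).

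Genes that rose with mouse Dux and fell with human DUX4 numbered 17. The stress and chaperone genes were Hspa1a (6.39), Pmaip1 (8.12), Hspa1b (5.94), Hspa5 (1.70) and Pdia4 (1.25). The replication and mitosis genes were Mcm3 (2.84), Uhrf1 (3.28) and Kif18b (2.12), of which Kif18b did not keep its mouse Dux rise with total count scaling. Signalling and receptor genes were Tnfaip6 (9.33), Il1rl1 (4.99), Sh2d1b1 (6.08), Edn1 (5.68) and Il18rap (6.01). The rest were Spp1 (6.80), Ctgf (4.62), Ankrd1 (3.82) and Cebpa (3.51). Luciferase responses of Mcm3, Uhrf1, Kif18b, Edn1, Ctgf and Ankrd1 were -2.19, -2.18, -2.51, -1.48, -1.14 and -0.91. Those of Spp1 and Cebpa went the other way, at 0.34 and 0.61. Whether the falls with DUX4 exceeded the effect of doxycycline was not tested.

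Genes that fell with mouse Dux and rose with human DUX4 numbered 14. The muscle genes were Nrap (-8.40), Eya1 (-3.22), Chrnd (-3.52) and Chrng (-3.70). The others were Cdkn1a (-4.16), Fmo1 (-6.42), Ppl (-5.86), Lix1 (-5.82), Dkk3 (-5.39), Lgr5 (-5.23), Fads6 (-5.11), Cd28 (-5.18), Nfe2 (-5.32) and Dtx3l (-1.34). The lines differed before induction in several of them, by 4.97 for Nrap and by 2.61 for Fmo1 (log2, mouse Dux line minus DUX4 line).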

How the results depend on the processing

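The differences of the 60 named genes kept their direction and their side of the threshold in each of 1380 recomputed values. For named genes with a group at 0, these values came from limma-trend, or from DESeq2 in that setting, and never from edgeR. In the main edgeR test Gm16513, Usp17lc, Rhag, Ctsq and C8b were not called (adjusted p from 0.9686 to 0.9998). With total count scaling, 827 genes rose with mouse Dux and fell with human DUX4 in place of 1266. DESeq2 called 292 of the genes with a group at 0, where limma-trend called 461. A test that the absolute difference exceeds 1 (glmTreat) called 1437 genes higher and 1077 lower. Leaving out 1 library at a time gave 4289 to 4863 higher, 4211 to 4611 lower, 762 to 819 strongly higher and 438 to 472 strongly lower genes, and 450 to 460 calls among genes with a group at 0. Among list counts, the integrated stress list had 5 lower genes without induced mouse Dux library 1 and 7 with total count scaling, in place of 3. It also had 5 without library 1 of both mouse Dux groups, an alternative chosen after seeing the data. Replicate numbers did not pair the samples, apart from library 1 of the mouse Dux line. Deviations of its induced library 1 correlated at 0.219 with uninduced library 1, and at -0.138 and -0.125 with uninduced libraries 2 and 3. Deviations of same-numbered libraries correlated between -0.108 and 0.219 (median 0.0207), above 0.1 in 3 of 18 pairs. With the replicate number as a block, 781 genes were strongly higher and 448 strongly lower, and 8777 of the 8868 calls were shared. At these depths a group at 0 limits a difference to its bound.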

Other observations

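Clustered histone genes, which were not among the lists above and were picked after their values were seen, showed a wide difference of responses. Most of their messages lack a poly(A) tail outside special conditions, and the libraries were made from polyadenylated RNA. Of 63 genes 55 were tested, and 54 had a higher and 0 a lower response to mouse Dux (median 4.43, against 32.9% higher and a median of 0.01 over all genes). Mouse Dux raised 55 (median 3.44), whereas DUX4 raised 4 and lowered 24 (median -0.73), or 4 and 39 without library 1 of both mouse Dux groups. Hist1h2ad, encoding a core histone H2A, went from 4.83 ± 0.619 to 69.0 ± 16.3 CPM with mouse Dux and from 4.88 ± 0.678 to 2.30 ± 0.309 CPM with DUX4 (difference 4.86, SE 0.318). Hist1h2ao had a difference of 4.90 (SE 0.345). Without those libraries the list median of the difference was 4.30. Near-identical copies may share reads.

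Ribosomal protein genes, also picked after their values were seen, differed by small amounts in 1 direction. Of 77 tested, 69 had a higher and 0 a lower response to mouse Dux (median 0.51). With total count scaling this became 44 and 1 (median 0.30). DUX4 lowered 71 (median -0.48) and mouse Dux raised 6 and lowered 4, or raised 7 and lowered 39 without library 1 of both groups and 1 and 48 with total count scaling. Rpl12 went from 723 ± 17.7 to 872 ± 115 CPM with mouse Dux and from 712 ± 14.1 to 412 ± 5.45 CPM with DUX4 (difference 1.06, SE 0.0881). Clustered protocadherin genes, adhesion genes that share exons and may share reads, were lower in 26 of 39 and higher in 0 (median -1.42). Over all genes tested, 32.3% were lower and 32.9% higher. Pcdhgc3 went from 375 ± 27.3 to 156 ± 40.6 CPM with mouse Dux and from 321 ± 5.74 to 408 ± 8.29 CPM with DUX4 (difference -1.61, SE 0.165). Without library 1 of both mouse Dux groups the protocadherin counts were 25 lower and 1 higher.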
